A study of Mus musculus with 24 samples.

Results

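The α-arrestins are described here by 5 genes, *Txnip*, *Arrdc1*, *Arrdc2*, *Arrdc3* and *Arrdc4*, of 22328 genes with a matched probe on the array. Their members are the non-control probes that the scanner output names with 1 of these symbols, 9 probes in all, and 7 of these passed the filter on dim signal. The family was chosen after earlier results of these data had shown *Txnip* and *Arrdc2* among the genes with a higher signal in Hypox. The differences between Hypox and Norm given for the members are therefore a description and carry no test.

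RNA of *M. gastrocnemius*, the large calf muscle, came from male C57BL/6JOlaHsd mice, of which 12 breathed 20.9% oxygen (Norm) and 12 breathed 12% oxygen (Hypox) for 6 h. All mice were 10 weeks old on arrival, ate a low-fat diet (10% of energy as fat) for 3 weeks and then a high-fat diet (40% of energy as fat) for 6 weeks, and were fasted. Norm and Hypox thus shared the obesogenic diet and the fast, and the fibers were not separated from the other cells of the muscle. Each of the 24 arrays carried the Cy5-labelled RNA of 1 mouse against a Cy3-labelled pool of all samples, with 2 Norm and 2 Hypox arrays on each of 6 slides. The values are log2 ratios of sample over pool, so that 0 stands for the level of the pool, and a difference of 1 for a change by a factor of 2.

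The α-arrestins are adaptor proteins with an arrestin fold and, in most members, a tail with short proline- and tyrosine-containing motifs. Through these motifs they bring ubiquitin ligases of the NEDD4 family to membrane proteins, which are then ubiquitinated and taken into the cell. *Txnip* also encodes the protein that binds and inhibits thioredoxin, lowers glucose uptake through the transporters GLUT1 and GLUT4, and is transcribed in response to glucose through MondoA, ChREBP and their partner Mlx.

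The stretches upstream of *Txnip*, *Arrdc2* and *Arrdc4* are shown because *Txnip* and *Arrdc2* have the largest differences of the family, and because *Txnip* and *Arrdc4* are known targets of MondoA. They are the 250 bases before the annotated start (RefSeq, GRCm38.p6, written 5′ to 3′ along the gene). Capitals mark matches, on either strand, to 7 patterns, in which N stands for any base. These are a ChoRE pattern (CACGNG, then any 5 bases, then CACGNG), the E-box (CACGTG), the core of the hypoxia response element (ACGTG), a FOXO pattern (GTAAACA), the CCAAT box (CCAAT), a glucocorticoid response pattern (GNACA, then any 3 bases, then TGTNC) and the TATA box (TATAAA).
Txnip upstream window, chr3:96557707-96557956, + strand: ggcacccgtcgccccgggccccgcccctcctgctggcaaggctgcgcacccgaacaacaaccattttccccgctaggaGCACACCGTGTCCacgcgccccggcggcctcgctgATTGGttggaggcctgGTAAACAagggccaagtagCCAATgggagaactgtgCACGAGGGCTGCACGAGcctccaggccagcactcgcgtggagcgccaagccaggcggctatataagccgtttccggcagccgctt
Arrdc2 upstream window, chr8:70839721-70839970, - strand: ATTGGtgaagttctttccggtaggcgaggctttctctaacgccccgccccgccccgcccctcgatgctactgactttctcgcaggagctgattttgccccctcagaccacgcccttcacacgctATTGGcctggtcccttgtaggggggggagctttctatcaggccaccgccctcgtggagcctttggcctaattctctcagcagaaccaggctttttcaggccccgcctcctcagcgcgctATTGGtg
Arrdc4 upstream window, chr7:68749239-68749488, - strand: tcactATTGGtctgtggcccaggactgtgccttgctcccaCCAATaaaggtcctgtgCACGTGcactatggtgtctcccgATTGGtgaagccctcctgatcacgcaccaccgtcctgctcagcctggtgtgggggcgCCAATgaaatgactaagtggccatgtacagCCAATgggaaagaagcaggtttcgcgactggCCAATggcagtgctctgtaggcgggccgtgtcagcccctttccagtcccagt
The *Txnip* window holds the ChoRE pattern from 85 to 69 bases before the start, as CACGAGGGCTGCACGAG. Only 0.0457% of all 32851 upstream windows of this length hold it. The same window holds GTAAACA, found in 3.17% of all windows, from 121 to 115 bases before the start, and the glucocorticoid response pattern, found in 0.387%, from 172 to 160 bases. The *Arrdc2* window holds CCAAT on the reverse strand at 3 places and none of the other patterns. The *Arrdc4* window holds CCAAT at 6 places, on 1 strand or the other, and 1 E-box from 193 to 188 bases before the start, inside which both matches to ACGTG lie. CCAAT occurs in 33.8%, CACGTG in 6.02%, ACGTG in 16.6% and TATAAA in 12.4% of all windows. The *Arrdc1* window holds none of the 7 patterns, and of the 3 windows of *Arrdc3*, 2 overlap and share a single CCAAT, and the remaining one holds ACGTG. A match in letters is a description of the sequence and does not show that a factor binds there.

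The arrays differed in brightness far more between slides than between groups. The mean Cy5 signal of an array was 58.3 to 102 on slide 1, the faintest, and 645 to 1014 on slide 6, with Norm (58.3 to 933) and Hypox (63.5 to 1014) spanning almost the same range. All 8 muscle fiber markers sought were detected, at 16.4 to 2686 times the local background. Of 9104 genes tested with limma's moderated test, 650 were higher and 462 lower at an unadjusted p under 0.05, and 31 passed a Benjamini-Hochberg adjusted p of 0.05. Of the 5 members, 3 were on the higher side of the unadjusted threshold and 0 on the lower side, 0 passed the adjusted threshold, and 0 had groups that do not overlap. The background is 7.14% of all genes for the unadjusted threshold on the higher side, 5.07% on the lower side, 0.341% for the adjusted threshold and 0% for groups that do not overlap. Since the members were chosen on this contrast, nothing is read from their count. It was taken only in the fit with loess and no block. With the slide as a block *Arrdc4* had a difference of 0.16 with a standard error of 0.07. With median centring *Arrdc2* had 0.97 with a standard error of 0.54. Without the array Hypox 12 the difference of *Txnip* given below was 0.44 in place of 0.54 and that of *Arrdc2* 0.75 in place of 0.64.

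*Txnip* was higher in Hypox muscle on its brighter probe and much less so on its dimmer one. The brighter probe lies at base 2167 of the transcript (mm9, chr3:96365147-96365206, + strand) and had a Cy5 signal of 57.4 times the local background. Its log2 ratio in the 12 Norm arrays had a lowest value of -1.08, a median of -0.38 and a highest value of -0.05. In the 12 Hypox arrays the lowest value was -0.59, the median 0.02 and the highest 1.27. Thus 8 Hypox arrays lay above every Norm array and 11 above the Norm median, while the ranges overlapped. The Norm mean was -0.47 ± 0.31 and the Hypox mean 0.08 ± 0.45 (SD over 12 arrays each), a difference of 0.54 with a standard error of 0.15, which is 1.46-fold. It ranked 16 of 9104 genes from the highest difference. On each slide the Hypox mean was the higher one, by 0.09 on slide 6 up to 1.20 on slide 2.

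The dimmer *Txnip* probe lies 822 bases further upstream in the same transcript, at base 1345 (chr3:96364206-96364265), and had 9.06 times the background. Its Norm values ran from -1.27 through a median of -0.09 to 0.28, and its Hypox values from -0.41 through -0.01 to 0.90. Only 1 Hypox array lay above every Norm array. The difference was 0.20 with a standard error of 0.14, positive on 4 of 6 slides. Between the 2 probes the log2 ratios correlated at r = 0.03 within Norm and 0.34 within Hypox (12 arrays each, given as a description). The mean of the *Txnip* probes gave a difference of 0.37. The probes of *Txnip* thus disagree in size, and the value of 0.54 rests on the probe nearer the 3′ end.

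*Arrdc2*, a less studied member of the family, had the largest difference of the 5 genes, though *Arrdc3* (0.68) lay above it (0.57) with the processed signals. Its brighter probe starts at base 2258 of the transcript (mm9, chr8:73359065-73359124, - strand) and had 41.9 times the background. The Norm values had a lowest of -0.96, a median of -0.33 and a highest of 0.38. The Hypox values had a lowest of -0.95, a median of 0.16 and a highest of 1.20. In Hypox 5 arrays lay above every Norm array and 11 above the Norm median, and 1 array, Hypox 12, was almost as low as the lowest Norm array. The Norm mean was -0.39 ± 0.36 and the Hypox mean 0.25 ± 0.59 (SD over 12 arrays each), a difference of 0.64 with a standard error of 0.18, or 1.56-fold. It ranked 5 of 9104 from the highest difference. The difference was positive on 6 of 6 slides, between 0.35 and 0.94. The second *Arrdc2* probe, which shares 49 of its bases with this one, gave 0.60 with a standard error of 0.17, and as it reads nearly the same stretch it is no independent measure. The correlation between both probes was 0.64 within Norm and 0.96 within Hypox.

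**Figure D1:**
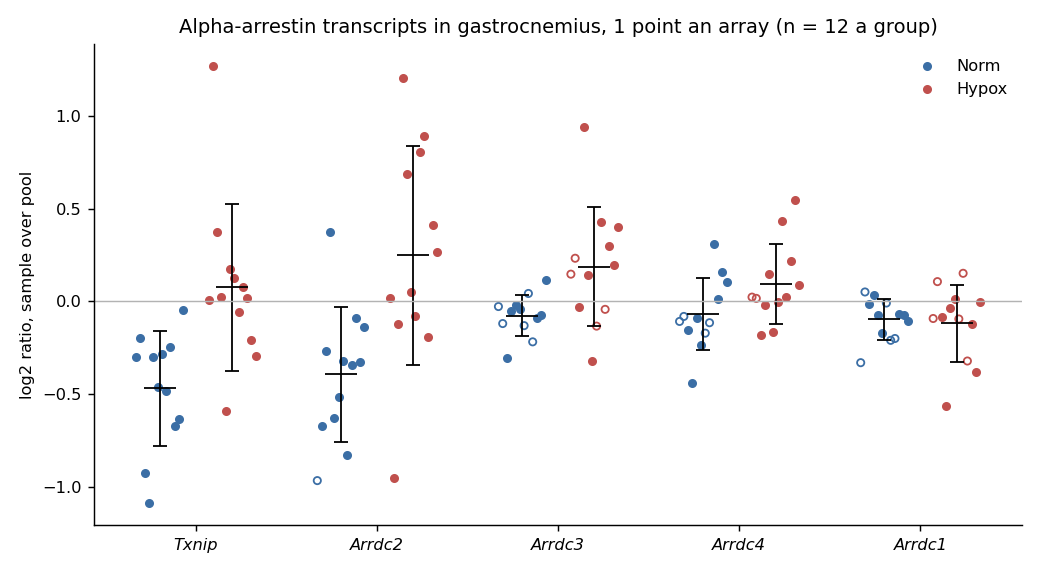
Log2 ratio of sample over pool (y axis) of the brightest probe of each gene (x axis), 1 point an array, with bars for mean ± SD of 12 Norm and 12 Hypox arrays. Open points are arrays on which the spot was not well above background; most Hypox points of *Txnip* and *Arrdc2* lie above the Norm mean, and the array Hypox 12 is the highest of *Txnip* (1.27) and the lowest Hypox array of *Arrdc2* (-0.95).

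*Arrdc3*, which acts on β-adrenergic receptors among other cargo, was measured near the floor of the arrays. Its only probe (base 3766, mm9, chr13:81034981-81035040, + strand) had 2.43 times the background and was well above background on 7 Norm and 8 Hypox arrays. The Norm values ran from -0.30 through a median of -0.06 to 0.12, and the Hypox values from -0.32 through 0.17 to 0.94. In Hypox 8 arrays lay above every Norm array and 1 below every Norm array, so the Hypox arrays were both higher and more spread. The difference was 0.26 with a standard error of 0.10 (means -0.08 ± 0.11 and 0.19 ± 0.32, SD, n = 12 each), positive on 5 of 6 slides. Without the array Hypox 8, which had the highest value, it was 0.20. With the processed signals it was 0.68, and in the deposited values 0.10 with a standard error of 0.14.

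*Arrdc4*, like *Txnip* transcribed in response to glucose through MondoA, was read by 2 probes. The probe of NM_025549 (base 1020, mm9, chr7:75886496-75886555, - strand) had 3.06 times the background and was well above it on 8 Norm and 10 Hypox arrays. Its Norm values ran from -0.44 through -0.10 to 0.31, and its Hypox values from -0.18 through 0.02 to 0.55. The groups overlapped over most of their range, with 2 Hypox arrays above every Norm array. The difference was 0.16 with a standard error of 0.09. The probe of NM_001042592 (base 3818), printed in 10 spots, had 1.58 times the background, fell short of the filter and was above background on 2 Norm and 3 Hypox arrays by the scanner software's call; its difference was 0.03 with a standard error of 0.04.

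*Arrdc1*, which recruits the ESCRT protein TSG101 to the plasma membrane for the release of vesicles, had a difference smaller than its error. Its probe of NM_001162485 (base 1632, mm9, chr2:24780875-24780934, - strand) had 2.04 times the background and was well above it on 7 arrays in each group. Norm values ran from -0.33 through -0.07 to 0.05, and Hypox values from -0.56 through -0.09 to 0.15. The Hypox arrays reached further both up and down, with 2 above and 2 below every Norm array. The difference was -0.02 with a standard error of 0.07, positive on 3 of 6 slides. The probe of NM_178408 was not well above background on any array, and no fold is given for it.

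**Figure D2:**
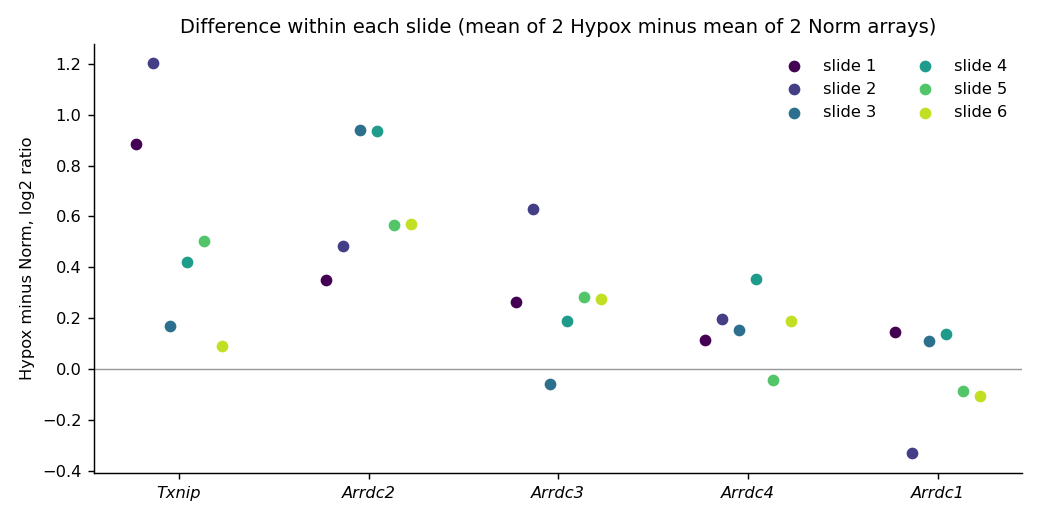
Difference Hypox minus Norm in log2 ratio (y axis) on each of 6 slides for the brightest probe of each gene (x axis), as the mean of 2 Hypox minus the mean of 2 Norm arrays. All 6 slides are above 0 for *Txnip* (0.09 to 1.20) and *Arrdc2* (0.35 to 0.94), 5 of 6 for *Arrdc3* and *Arrdc4*, and 3 of 6 for *Arrdc1*.

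**Figure D3:**
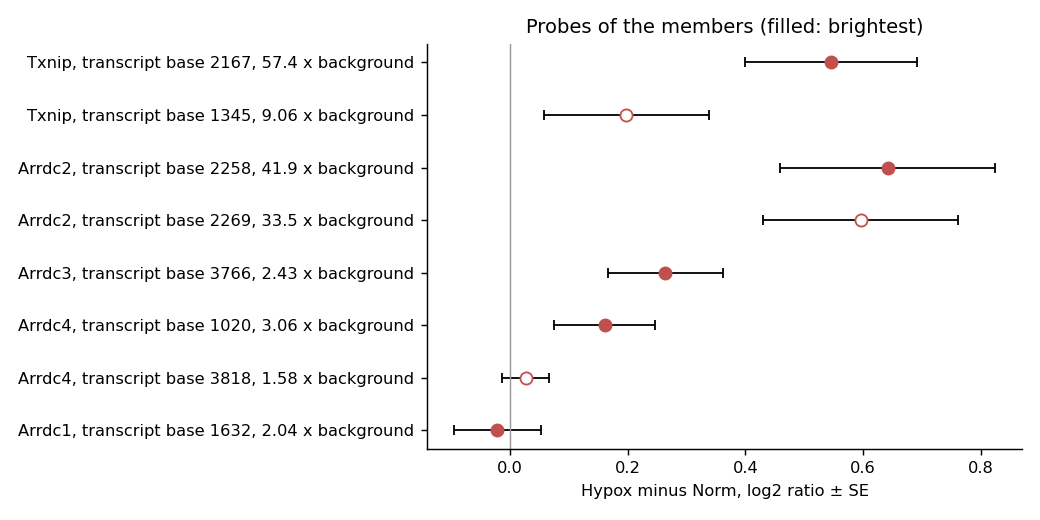
Difference Hypox minus Norm in log2 ratio ± standard error (x axis) of the 8 member probes that were well above background on at least 1 array, with the place in the transcript and the multiple of the local background on the y axis. The filled probe is the brightest of its gene; the probes of *Txnip* lie apart at 0.54 and 0.20, those of *Arrdc2* together at 0.64 and 0.60.

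In the order of their differences the members ran *Arrdc2*, *Txnip*, *Arrdc3*, *Arrdc4*, *Arrdc1*. With the processed signals the order was *Arrdc3* (0.68), *Arrdc2* (0.57), *Txnip* (0.54), *Arrdc4* (0.52) and *Arrdc1* (-0.05). In the deposited values *Arrdc4* (0.15) lay above *Arrdc3* (0.10). The step from *Arrdc2* (0.64) to *Txnip* (0.54) is smaller than the standard error of either gene, and the step from *Arrdc3* (0.26) to *Arrdc4* (0.16) is about the size of theirs. No test of these steps was made. *Txnip* on its brighter probe and *Arrdc3*, and likewise *Arrdc4* and *Arrdc1*, lie apart by more than either standard error. On its dimmer probe *Txnip* had 0.20, below *Arrdc3* (0.26), so its place in the order depends on the probe. The difference had a median of 0.03 over all genes tested, with 5% of the genes below -0.24, 5% above 0.25 and 1% above 0.38. *Arrdc2* and *Txnip* lay above the last of these, *Arrdc3* between the last pair, and *Arrdc4* and *Arrdc1* inside the central range. When the arrays were only centred on their medians, with no loess, *Arrdc3* had a difference of 0.31 and *Arrdc4* of 0.26, and the median of all genes lay at 0.25. Relative to that median, *Arrdc2* lay at 0.71 and *Txnip* at 0.67, while *Arrdc3* lay at 0.05 and *Arrdc4* at 0.00. The cause of this shift was not tested.

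**Figure D4:**
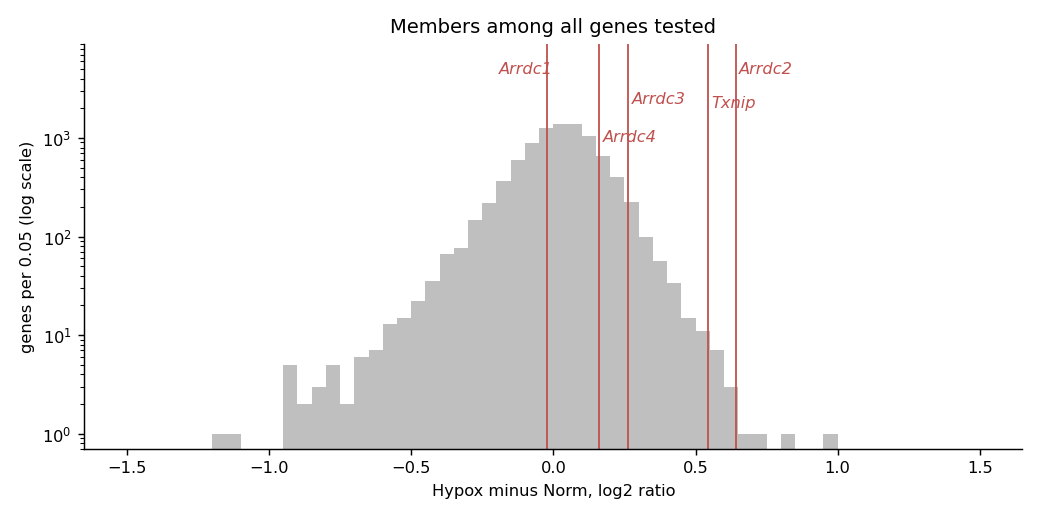
Number of genes (y axis, log scale) by their difference Hypox minus Norm in log2 ratio (x axis, steps of 0.05) for the 9104 genes tested, with lines for the 5 members. *Arrdc2* (0.64) and *Txnip* (0.54) lie in the upper tail, and *Arrdc1* (-0.02) near the middle.

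Variation among mice of the same group does not use the contrast by which the members were chosen, and it was tested. Of 20 correlations, 10 pairs of members in 2 groups, 2 had an unadjusted p under 0.05 and 0 passed after Benjamini-Hochberg adjustment over the 20 (two-sided permutation test, 100000 resamples, n = 12). No pair was thus shown to vary together among mice at this sample size, with r between -0.69 and 0.59. This depends on the scaling, since 17 of the 20 passed after adjustment with median centring and 7 in the deposited values. *Txnip* and *Arrdc2* had the most negative r, -0.69 in Hypox (p = 0.0162, adjusted p = 0.323; Spearman's rho -0.49, p = 0.11, adjusted p = 0.551). In Norm it was -0.55 (p = 0.0636, adjusted p = 0.335; rho -0.36, p = 0.244, adjusted p = 0.611). Without the 2 arrays farthest from the *Txnip* median, r was -0.29 in Hypox and -0.10 in Norm, so the relation rests on those arrays. *Txnip* and *Arrdc4* in Hypox had the strongest rank correlation of the 20 (rho -0.76, p = 0.00615, adjusted p = 0.123; r -0.38, p = 0.219, adjusted p = 0.533), and there r was -0.69 without the same 2 arrays. Hypox 12, on the faintest slide, had both the highest *Txnip* and the lowest Hypox value of *Arrdc2*. Without that slide r was -0.36 in Hypox, with the dimmer *Txnip* probe it was -0.09, and with centring in place of loess it turned to 0.82 in Hypox and 0.94 in Norm. In the deposited values it was 0.50 in Hypox and 0.85 in Norm, so the direction of this relation depends on the scaling. *Arrdc2* and *Arrdc1* had the highest r, 0.59 in Norm (p = 0.0408, adjusted p = 0.335; rho 0.53, p = 0.0798, adjusted p = 0.551), which fell to 0.18 without the 2 arrays farthest from the *Arrdc2* median, and it was -0.55 in Hypox.

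To take the slide out, each value was set against the mean of the 2 arrays of its group on its slide. The deviations of these 2 arrays are equal in size and opposite in sign. The 24 deviations are thus not independent, and each group on a slide contributes a single independent difference. Over the 24 arrays, these deviations correlated at -0.53 for *Txnip* with *Arrdc2* (exact permutation test over 4096 sign patterns, two-sided, p = 0.101, adjusted p = 0.634 over 10 pairs). For *Arrdc2* with *Arrdc3* the value was 0.52 (exact p = 0.297, adjusted p = 0.634). None of the 10 pairs passed the adjusted threshold in this test, and 0 had an unadjusted p under 0.05.

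Likeness to *Arrdc2* was also looked up over all genes. Genes were compared by the r of the same deviations over 24 arrays, which mirror each other in pairs and are not independent. Among 9052 genes, the 5 most like *Arrdc2* were *Cebpb* (0.87), *Gm10269* (0.80), *Rgcc* (0.80), *Sesn1* (0.80) and *Zadh2* (0.80). They are given as a description without a test, since they are the highest of many, and 1% of all genes had an r above 0.66. *Cebpb*, which encodes the transcription factor C/EBPβ, kept an r of 0.83 without the 2 arrays on which *Arrdc2* deviated most, of 0.83 with the second *Arrdc2* probe and of 0.79 to 0.91 under the other scalings and the deposited values. Within groups, without regard to slide, its r with *Arrdc2* was 0.86 in Norm and 0.86 in Hypox. For the other genes this within-group r was lower in Norm, at 0.52 for *Gm10269*, 0.58 for *Rgcc*, 0.18 for *Sesn1* and -0.11 for *Zadh2*, and in Hypox 0.84, 0.88, 0.78 and 0.39 in the same order. Its own difference was 0.31 with a standard error of 0.16 and did not pass the unadjusted threshold (limma p = 0.0589, adjusted p = 0.428). *Rgcc*, a regulator of the cell cycle, was higher by 0.46 (standard error 0.16, limma p = 0.00772, adjusted p = 0.224). *Sesn1*, a sestrin, had a difference of 0.14 with a standard error of 0.11 (limma p = 0.219, adjusted p = 0.628). *Arrdc3*, the member most like *Arrdc2*, had an r of 0.52, below 395 other genes and above the 95th percentile of all genes (0.50).

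The genes most like the brighter *Txnip* probe were *Bsg* (r = 0.96), *Rasl2-9* (0.92), *Car4* (0.91), *Peg13* (0.91) and *Nrbp1* (0.90), with 1% of all genes above 0.77. *Bsg* encodes basigin, the membrane partner of lactate transporters, and *Car4* a membrane-anchored carbonic anhydrase. Without the 2 arrays on which this probe deviated most, the r of the deviations was 0.92 for *Bsg* and 0.79 to 0.85 for the other genes. Within groups, without regard to slide, *Car4* had an r of 0.14 in Norm and *Peg13* of 0.49 in Hypox, the other values lying between 0.78 and 0.97. With the dimmer *Txnip* probe in their place these values were 0.01 for *Bsg*, 0.04 for *Rasl2-9*, 0.00 for *Car4*, 0.10 for *Peg13* and -0.11 for *Nrbp1*. The likeness is therefore one of the brighter probe and is not shared by both measures of *Txnip*. *Bsg* itself had a difference of 0.22 with a standard error of 0.17 (limma p = 0.219, adjusted p = 0.628). For the dim members the most similar genes were *Slc25a25* for *Arrdc3* (0.86), *Chrnd* for *Arrdc4* (0.85) and *Sik2* for *Arrdc1* (0.77). With the processed signals of the scanner software this was 0.16 for *Chrnd* and 0.25 for *Sik2*, and in the Cy5 channel alone it was 0.57 for *Slc25a25* and 0.28 for *Chrnd*. Without the 2 arrays on which the member deviated most, it was 0.74 for *Slc25a25*, 0.86 for *Chrnd* and 0.65 for *Sik2*. Within Norm, without regard to slide, r was 0.11, 0.55 and 0.12 in the same order. Within Hypox it was 0.54, 0.71 and 0.61.

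**Figure D5:**
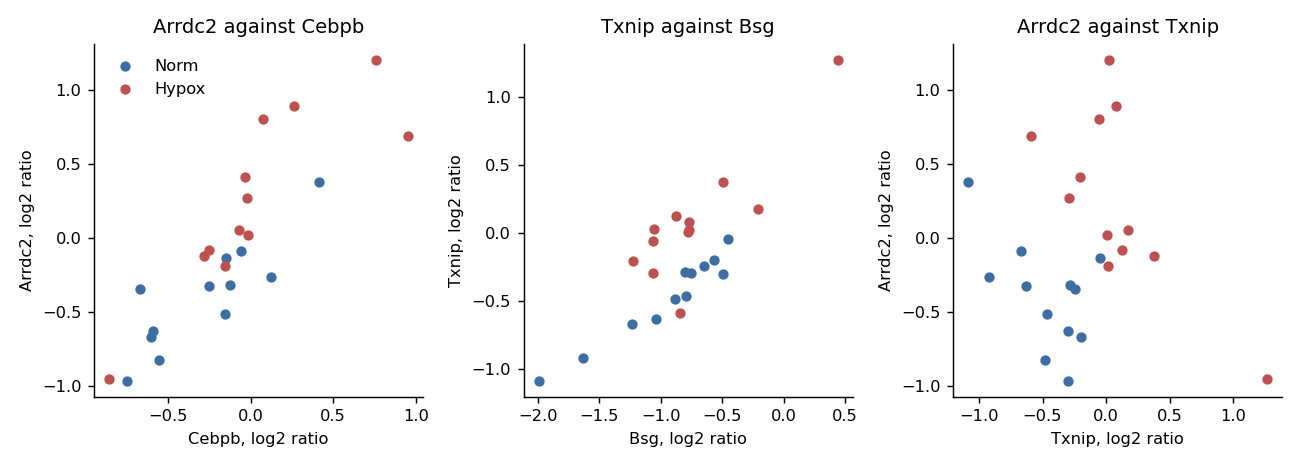
Log2 ratios of *Arrdc2* against *Cebpb*, *Txnip* against *Bsg* and *Arrdc2* against *Txnip*, 1 point an array, in the 12 Norm and 12 Hypox arrays. Arrays high in *Cebpb* are high in *Arrdc2* within both groups (r = 0.86 in each), likewise for *Bsg* and *Txnip*, and in the last panel the array Hypox 12 stands alone at the lower right.

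Among the ligases that α-arrestins recruit, *Wwp1* was lower in Hypox on its brighter probe. Of 16 genes listed as NEDD4-family ligases and other arrestins, 11 were tested, 1 was higher and 1 lower at the unadjusted threshold, which is 18.2% against 12.2% of all genes, and the median difference was 0.07. For *Wwp1*, a NEDD4-family ligase, the Norm mean was -0.02 ± 0.13 and the Hypox mean -0.42 ± 0.20 (SD over 12 arrays each; difference -0.40, standard error 0.07, limma p = 1.1e-05, adjusted p = 0.0196). The Hypox mean was the lower one on 6 of 6 slides. With median centring the difference of *Wwp1* was -0.15 with a standard error of 0.26, and the call was lost. The second *Wwp1* probe past the filter, at 2.28 times the background against 5.27 for the chosen one, gave a difference of 0.08 and so does not share the decrease. *Arrb1*, the β-arrestin that uncouples activated receptors, was higher by 0.29 (standard error 0.13, p = 0.0286, adjusted p = 0.339) on 5 of 6 slides. That call was lost with the processed signals of the scanner software (0.11), with the Cy5 channel alone (0.13) and without the arrays Norm 12 (0.26) or Hypox 2 (0.20). *Nedd4*, *Nedd4l*, *Itch* and *Wwp2*, chosen after their values were seen, had differences of 0.11, 0.07, 0.18 and 0.12 that did not pass. Another *Nedd4* probe, at 2.11 times the background against 42.9 for the chosen one, gave -0.23.

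In the list of the thioredoxin system, which also holds the glutaredoxins, 1 of 16 genes tested passed the unadjusted threshold (6.25% against 12.2% of all genes, median difference -0.04). None of its thioredoxin, thioredoxin reductase and peroxiredoxin genes did. The gene that passed was *Glrx2*, a mitochondrial glutaredoxin of the glutathione system, lower by 0.69 on the log2 scale (difference -0.69, standard error 0.25, limma p = 0.0108, adjusted p = 0.249). Its chosen probe had 1452 times the background, whereas another *Glrx2* probe, at 20.3 times, gave a difference of 0.09. The call was lost in the Cy5 channel alone (-0.34) and in the deposited values (-0.08). With median centring it was lost too, and the difference turned to 0.0908. *Txn1*, thioredoxin itself, chosen after its values were seen, had a difference of -0.12 with a standard error of 0.12.

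Of 17 genes of MondoA, ChREBP and glucose entry, all tested, 0 passed the unadjusted threshold in limma, against 12.2% of all genes, and the median difference was -0.02. With the slide as a block 3 passed, where 1289 of the 9104 genes did. The transcripts of MondoA (*Mlxip*, 0.07), ChREBP (*Mlxipl*, -0.06) and *Mlx* (0.16) were among those that did not pass, as were those of GLUT1 (*Slc2a1*, 0.05) and GLUT4 (*Slc2a4*, -0.18), all of them chosen after their values were seen. Another *Mlxipl* probe, at 3.75 times the background against 25.6 for the chosen one, gave -0.24. The β-adrenergic and ESCRT partners of *Arrdc3* and *Arrdc1* had 1 of 19 genes tested past the threshold (5.26% against 12.2% of all genes, median difference 0.05), *Vps4b*, an ATPase of the ESCRT machinery, at 0.28 (standard error 0.13, limma p = 0.0479, adjusted p = 0.404). That call was lost when any of 15 arrays was left out, namely Norm 1, 4, 5, 6, 7, 8, 9 or 10 or Hypox 1, 2, 3, 6, 7, 8 or 10, the difference being 0.15 without Hypox 2 and 0.25 to 0.28 without each of the others. It was also lost with the processed signals (0.25), in the Cy5 channel alone (0.20) and in the deposited values (0.28).

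The list of glucocorticoid and FOXO targets of muscle gave the highest share of the 5 pathway lists. It also holds the genes of the glucocorticoid receptor (*Nr3c1*) and of FOXO factors (*Foxo1*, *Foxo3*, *Foxo4*), so its share is not one of targets alone. Of 24 tested, 6 were higher and 1 lower (29.2% against 12.2% of all genes), with a median difference of 0.16 against 0.03. The count past the threshold was 0 with median centring and 13 with array weights. Earlier results of these data were known when the list was written, so its count is not independent evidence. *Sgk1*, a kinase gene induced by glucocorticoids, was higher by 0.46 (standard error 0.11, limma p = 0.000162, adjusted p = 0.0475). *Mt1*, a metallothionein, was higher by 0.52 (standard error 0.12, limma p = 0.000219, adjusted p = 0.0585). For both genes the Hypox mean was above the Norm mean on 6 of 6 slides. With median centring *Sgk1* had 0.85 (standard error 0.49) and *Mt1* 0.88 (standard error 0.53), and neither passed. *Irs2*, the insulin receptor substrate that FOXO factors induce, was lower by 0.34 on the log2 scale (difference -0.34, standard error 0.09, p = 0.000707, adjusted p = 0.0922). The difference of *Irs2* was -0.20 in the deposited values and 0.0002 with median centring, and the call was lost in both. The other genes higher at the unadjusted threshold, outside the naming rule, were *Mt2* (0.62), *Ddit4* (0.53), *Gadd45a* (0.25) and *Foxo1* (0.23). The 17 genes that did not pass lay between -0.15 (*Foxo4*) and 0.41 (*Cebpd*), with *Fkbp5* at 0.17 and *Tsc22d3* at 0.09, these 4 likewise named after their values were seen. Both *Cebpb* and *Sesn1*, named above for their likeness to *Arrdc2*, are on this list, and neither passed.

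Markers of other cells of the muscle also differed between the groups, and in whole tissue fewer cells of a type and less RNA per cell cannot be told apart. Of the endothelial markers, 3 of 6 tested were higher, against 7.14% of all genes on the higher side. The smallest p-values were those of *Esam* (0.28, standard error 0.08, limma p = 0.00142, adjusted p = 0.116) and *Cldn5* (0.30, standard error 0.10, p = 0.00443, adjusted p = 0.192). The third, chosen after its value was seen, was *Cdh5* (0.38, standard error 0.13, p = 0.00533, adjusted p = 0.199). With median centring *Esam* had 0.43 and *Cldn5* 0.48, each with a standard error of 0.28, and neither passed. The receptor genes *Kdr* and *Flt1*, chosen after their values were seen, did not pass, and their probes disagree: *Kdr* had -0.15 on the brightest probe and 0.10 on another, and *Flt1* had -0.04 on the brightest and 0.35 and 0.03 on the others. Over the Norm arrays the mean of the 6 lay between -0.33 and -0.07, over the Hypox arrays between -0.22 and 0.01. Of the adipocyte markers, 2 of 5 were lower, against 5.07% of all genes, *Cfd* (-0.56, p = 0.0176, adjusted p = 0.279) and *Adipoq* (-0.33, p = 0.0308, adjusted p = 0.348), and the mean of the 5 lay between -0.68 and 0.96 over Norm arrays, between -0.72 and -0.12 over Hypox arrays. Of the peripheral nerve markers 2 of 5 were lower, *Prx* (-0.28, p = 0.0281, adjusted p = 0.336) and *Pmp22* (-0.41, p = 0.037, adjusted p = 0.364), and the mean of the 5 lay between -0.44 and 0.49 (Norm) and between -0.65 and 0.19 (Hypox). The only lung marker past the filter, *Sftpc*, a surfactant protein gene that muscle does not express, was higher by 0.81 (standard error 0.31, p = 0.0152, adjusted p = 0.27), and lay between -2.04 and -0.16 in Norm, between -1.39 and 2.57 in Hypox.

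Among the muscle fiber markers 1 of 8 passed (12.5% against 12.2% of all genes), *Mylpf*, a myosin light chain, higher by 0.36 (standard error 0.10, p = 0.000908, adjusted p = 0.0979), with 0.67 and a standard error of 0.40 under median centring, where it did not pass, and *Myh1* had -0.26 (p = 0.0937, adjusted p = 0.492). *Myh1* passed the unadjusted threshold with the slide as a block (-0.26, limma p = 0.00988), with the replicate block (p = 0.0242), with array weights (p = 0.0483), without Hypox 4 (-0.33) and without the faintest slide (-0.19), while it was 0.38 with median centring and 0.20 in the deposited values. Their mean lay between -0.14 and 2.15 (Norm) and between -0.04 and 1.94 (Hypox). None of the 2 red blood cell markers and 3 leukocyte markers tested passed, with *Alas2* at 0.13 (p = 0.231), *Hba-a1* at 0.15 (p = 0.247), *Cd68* at 0.23 (p = 0.0811) and *Csf1r* at -0.12 (p = 0.323). *Cd68* passed in the Cy5 channel alone (0.30), with array weights (0.32), with the replicate block (0.23, limma p = 0.0306) and without Hypox 2 or Hypox 8, and was 0.13 without Hypox 11. The red blood cell mean lay between -1.03 and -0.06 (Norm) and between -0.60 and 0.03 (Hypox), the leukocyte mean between -0.35 and 0.34 (Norm) and between -0.31 and 0.41 (Hypox). Within slide and group, the deviations of *Arrdc2* correlated with the endothelial mean at 0.51 and with *Sftpc* at 0.49, and those of *Arrdc3* with *Sftpc* at 0.62 and with the fiber mean at -0.52. For the brighter *Txnip* probe the highest of these values was 0.36, with the nerve markers, and for the dimmer one 0.63, also with the nerve markers. The dimmer *Txnip* probe had -0.54 with the red blood cell mean. *Arrdc4* had 0.46 with the red blood cell mean and -0.42 with the nerve mean, and *Arrdc1* had -0.46 with *Sftpc*. *Arrdc3* had 0.46 with the log2 mean Cy5 signal of the array. The calls of *Adipoq* and *Prx* were lost without Norm 12 and without some other single arrays (Norm 3 or 7 and Hypox 1 or 9 for *Adipoq*, Hypox 2 for *Prx*), and that of *Pmp22* without Norm 1, 3, 6, 9, 10 or 12, without Hypox 1, 2, 4, 6, 10 or 12 and without the faintest slide. Without these arrays *Adipoq* lay between -0.30 and -0.25, *Prx* at -0.20 and -0.23 and *Pmp22* between -0.39 and -0.31. The calls were also lost in the deposited values, at -0.40 for *Cfd*, -0.32 for *Adipoq*, -0.21 for *Prx* and -0.30 for *Pmp22*. Further losses were those of *Adipoq* in the Cy5 channel alone (-0.22), of *Prx* with processed signals (-0.36) and of *Pmp22* with array weights (-0.28). The part of these cells in the differences of the members was not tested.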

How the data were processed

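Total RNA of *M. gastrocnemius* was measured on 24 Agilent 2-colour arrays, 12 Norm and 12 Hypox. The authors deposited the intensity of every spot as written by Agilent Feature Extraction 10.7.3.1 (mean signal, local background and flags per dye), with no normalization between arrays in the columns used. Their series table holds log2 values that the authors normalized. Its method of scaling and its use of the Cy3 channel are not given in the sources used here, so it served as an alternative. Every column of that series table had the same median (6.58). Its values correlated with log2 Cy5 at 0.967 to 0.999 and with log2 Cy3 at 0.892 to 0.992. The sample was taken as Cy5 and the pool as Cy3 on every array, as the sample descriptions state, although for Hypox 5 to 9 the label fields give dye names that differ from these.

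Of 59305 non-control spots, readings flagged by the software were left out (7260 over all arrays). Normexp (offset 50), loess within arrays, averaging of spots per probe and limma's moderated test of Hypox minus Norm followed. The model held no block, and p-values of 9104 genes were adjusted by Benjamini-Hochberg. Probes entered with a mean Cy5 signal over 2 times that of their surroundings and values missing on no more than 4 arrays, and the brightest probe stood for a gene. The offset shrinks differences of dim probes. Of 55681 probes, 31381 were matched to a gene (RefSeq, GRCm38.p6), 27235 by accession, 3581 by symbol and 565 by synonym. The sources used here give no exons or UTRs. Probe positions are those of the scanner output (mm9).

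The members and the lists were chosen with earlier results of these data known, and 1 marker gene is not reported here. Text names all member probes, list genes past the adjusted threshold, up to 2 per direction with the smallest p past the unadjusted one, up to 2 markers a list, and the genes most alike. Same-numbered Norm and Hypox arrays did not deviate together (r over 0.1 in 3 of 12 pairs), so numbers were not treated as pairs. No array repeated another (highest r 0.82). Number and brightness of arrays limit the precision. The limma step was tested on simulated data for 9104 genes, 200 of them shifted by a log2 value of 1, and found 98.5% of these with 11 false calls. That shift is larger than the difference of any member (highest 0.64) and than the 99th percentile of all genes (0.38). Recovery of differences of the size seen here was not tested. The alternatives were other scalings, the deposited values, filters, the mean of probes, blocks, array weights, the methods' t-test, leaving out each array and, added after seeing the data, leaving out the faintest slide and using the second *Txnip* probe. Fits were run in limma 3.58.1 (R 4.3.3), and correlations and figures with scipy 1.17.1, pandas 2.3.3 and numpy 2.4.6 under Python 3.11.15.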

Additional observations from a re-analysis of the deposited data

How the results depend on the processing

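Over the other scalings, filters, blocks, weights and the mean of probes the difference of *Txnip* ranged from 0.37 to 0.93 and that of *Arrdc2* from 0.57 to 0.97. Both upper ends came with median centring. There the standard errors were 0.45 for *Txnip* and 0.54 for *Arrdc2*, against 0.15 and 0.18. The dimmer *Txnip* probe alone gave 0.20. With each array left out in turn, *Txnip* lay between 0.44 and 0.61 and *Arrdc2* between 0.56 and 0.75. *Arrdc3* moved to 0.68 and *Arrdc4* to 0.52 with the processed signals, *Arrdc3* had 0.10 and *Arrdc1* -0.20 in the deposited values, *Arrdc1* had 0.0876 with median centring, and *Arrdc3* and *Arrdc1* did not pass a filter at 3 times the background. Leaving out single arrays gave 0.20 to 0.31 for *Arrdc3*, 0.12 to 0.20 for *Arrdc4* and -0.05 to 0.02 for *Arrdc1*.

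Against 1112 of 9104 genes past the unadjusted threshold, 32 passed with median centring, 724 in the Cy5 channel alone and 488 in the deposited values. With no filter 1939 of 22328 genes passed, with array weights 1711, and without single arrays 971 to 1286. Against 31 past the adjusted threshold there were 66 with processed signals, 0 with median centring (limma, 32 at the unadjusted threshold), 15 in the Cy5 channel alone, 1 in the deposited values, 8 with no filter, 70 with the slide as a block, 279 with array weights, 9 by the methods' t-test, and 4 (without Hypox 7) to 53 (without Norm 12) without single arrays.

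With the replicate number as a block (replicate block), 1185 genes passed the unadjusted and 18 the adjusted threshold, and 2 genes of MondoA, ChREBP and glucose entry passed in place of 0; since the numbers do not pair the mice, nothing more is read from it.

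Genes past the unadjusted threshold, by list: the ligases and arrestins had 2, but 1 with processed signals, 0 with median centring, 1 in the Cy5 channel alone and 1 to 3 without single arrays. The thioredoxin system had 1, but 0 with median centring, in the Cy5 channel alone and in the deposited values, 2 with array weights and 1 to 2 without single arrays. MondoA, ChREBP and glucose entry had 0, but 2 with processed signals, 1 in the deposited values, with the mean of probes and with array weights, 3 with the slide as a block, 2 without the faintest slide and 0 to 2 without single arrays. Glucocorticoid and FOXO targets had 7, but 0 with median centring, 13 with array weights and 6 to 12 without single arrays. The β-adrenergic and ESCRT partners had 1, but 0 in the Cy5 channel alone, with median centring, with processed signals and in the deposited values, 2 with array weights and 0 to 2 without single arrays.

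Of the 20 correlations between members, 17 passed after adjustment with median centring, 1 in the Cy5 channel alone and 7 in the deposited values, against 0. With median centring the calls of *Wwp1*, *Sgk1*, *Mt1*, *Arrb1*, *Vps4b* and the markers named as past the unadjusted threshold by the naming rule were lost, except that of *Sftpc*, while standard errors were larger (0.49 for *Sgk1*) and the differences of *Sgk1* (0.85), *Mt1* (0.88), *Arrb1* (0.50) and *Vps4b* (0.41) were larger too; that of *Wwp1* was -0.15. Differences changed sign with median centring for *Csf1r* (0.16), *Glrx2* (0.0908), *Irs2* (0.0002) and *Myh1* (0.38), and in the deposited values for *Csf1r* (0.0266) and *Myh1* (0.20). Median centring puts the median of all genes at 0.25, above each of these except that of *Myh1*. The cause of the other shifts was not tested.

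The sign of the correlations between members turned under several alternatives, so no direction of these is given as settled. With median centring r was in Norm 0.94 for *Txnip* with *Arrdc2*, 0.84 for *Txnip* with *Arrdc1*, 0.74 for *Arrdc2* with *Arrdc3*, 0.83 for *Arrdc2* with *Arrdc4*, 0.87 for *Arrdc3* with *Arrdc4*, 0.92 for *Arrdc3* with *Arrdc1* and 0.83 for *Arrdc4* with *Arrdc1*, and in Hypox 0.82 for *Txnip* with *Arrdc2*, 0.67 for *Txnip* with *Arrdc3*, 0.75 for *Txnip* with *Arrdc4*, 0.40 for *Arrdc2* with *Arrdc1*, 0.44 for *Arrdc3* with *Arrdc1* and 0.69 for *Arrdc4* with *Arrdc1*. In the deposited values r was in Norm 0.85 for *Txnip* with *Arrdc2*, -0.67 for *Txnip* with *Arrdc3*, -0.68 for *Arrdc2* with *Arrdc1*, 0.19 for *Arrdc3* with *Arrdc4* and 0.83 for *Arrdc3* with *Arrdc1*, and in Hypox 0.50 for *Txnip* with *Arrdc2*, -0.49 for *Txnip* with *Arrdc1* and -0.0861 for *Arrdc2* with *Arrdc3*. With processed signals r was in Norm -0.41 for *Txnip* with *Arrdc3*, -0.25 for *Txnip* with *Arrdc4*, 0.62 for *Arrdc2* with *Arrdc3*, 0.67 for *Arrdc2* with *Arrdc4*, 0.68 for *Arrdc3* with *Arrdc4*, 0.66 for *Arrdc3* with *Arrdc1* and 0.31 for *Arrdc4* with *Arrdc1*, and in Hypox 0.10 for *Txnip* with *Arrdc2*, -0.0927 for *Txnip* with *Arrdc1* and 0.20 for *Arrdc4* with *Arrdc1*. In the Cy5 channel alone r was in Norm -0.29 for *Txnip* with *Arrdc3*, 0.49 for *Arrdc2* with *Arrdc3*, 0.54 for *Arrdc2* with *Arrdc4*, 0.62 for *Arrdc3* with *Arrdc4*, 0.52 for *Arrdc3* with *Arrdc1* and 0.63 for *Arrdc4* with *Arrdc1*, and in Hypox 0.16 for *Txnip* with *Arrdc3*, 0.0672 for *Arrdc3* with *Arrdc1* and 0.31 for *Arrdc4* with *Arrdc1*. As deviations within slide and group (set against Norm) r was -0.32 for *Txnip* with *Arrdc3*, -0.13 for *Txnip* with *Arrdc4*, 0.26 for *Txnip* with *Arrdc1*, 0.52 for *Arrdc2* with *Arrdc3*, 0.17 for *Arrdc2* with *Arrdc4*, -0.32 for *Arrdc2* with *Arrdc1* and 0.35 for *Arrdc3* with *Arrdc4*. With the dimmer *Txnip* probe r was in Norm -0.55 for *Txnip* with *Arrdc4* and 0.0534 for *Txnip* with *Arrdc1*, and in Hypox -0.0271 for *Txnip* with *Arrdc1*. With the mean of probes r was in Norm -0.12 for *Txnip* with *Arrdc4* and 0.10 for *Arrdc2* with *Arrdc4*. Without the faintest slide r was in Hypox -0.0733 for *Txnip* with *Arrdc1*. The cause was not tested.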
